A study of Mus with 3 samples.

Results

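Neurotrophins and growth factors act as secreted survival and plasticity signals, and 9 genes that encode such factors, their receptors or a related secreted peptide were followed in the mouse hippocampus. The set held the ligands Bdnf, Ntf3, Igf1 and Fgf1, the receptors Ntrk2, Ntrk3, Ngfr and Igf1r, and the secreted peptide precursor Vgf. Members were found by gene name on the array, which gave 19 of 39429 probes and 9 of 23694 named genes. A probe was called measured in a comparison when the scanner's signal to noise score reached 2.6 on both arrays and the spot was not saturated on both. All 9 genes had at least 1 measured probe. Of the 19 probes, 15 were measured on all 3 arrays, 1 was above background on ASO alone, and 3 were not well above background on any array.

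The study asked whether oil components of sweet potato shochu, a distilled spirit, affect memory after injection of the amyloid fragment Aβ25-35. Male Slc:ddY mice aged 6 weeks received oral doses for 15 days. In the normal control NCO and the injected control ACO the dose was distilled water, and in ASO it was shochu oil at 2000 mg/kg/day. On day 8, NCO mice were given 5 µL of distilled water by a route that the labels do not spell out, while ACO and ASO mice received 10 nmol of Aβ25-35 in 5 µL into the cerebral ventricles. The protocol names the injected oil group differently in 1 place, and ASO was taken as that group from the design text. All mice were tested in a Y-maze on day 16 before the hippocampus was taken. RNA of 10 mice per group was pooled, as 5 sets of 2 mice, and hybridised to 1 array per group. There was therefore no replicate error between mice, no test was possible, and each difference below compares pools of mice and not conditions. No group received the oil without the peptide.

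The neurotrophins BDNF and NT-3 are secreted by neurons and bind the receptor tyrosine kinases TrkB (gene Ntrk2) and TrkC (Ntrk3), while p75NTR (Ngfr) binds all neurotrophins and their uncleaved precursors. In the hippocampus BDNF is known for its part in synaptic plasticity and memory, and its transcription follows neuronal activity. TrkB and TrkC exist as full-length forms with a kinase domain and as truncated forms without one; the truncated TrkB is abundant in astrocytes. IGF-1 acts through IGF1R, another receptor tyrosine kinase, FGF-1 through the FGF receptors, and VGF is a neuropeptide precursor of dense-core vesicles whose transcription is induced by neurotrophins.

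Levels are given as background-corrected fluorescence intensities scaled so that the 75th percentile is the same on each array. Differences are in log2 after adding 50, so those of dim probes are understated. Where a gene had several probes, the brightest measured one stood for the gene. The error that could be measured was that between spots: over 251 probes printed 10 times and measured on ACO and NCO, the median SD of the spot difference was 0.08 for ACO minus NCO. It was 0.09 for ASO minus ACO over 254 probes and 0.10 for ASO minus NCO over 250 probes. These values do not contain the spread between mice. All 3 arrays lay on 1 slide. Between 50.9% and 53.7% of probes were above background, highest on ASO. The 5 bright spike-in probes, which report labelled RNA added to each sample, had a median difference of -0.14 for ACO minus NCO and 0.48 for ASO minus ACO, so they read brightest on ASO. The part of this in the results was not tested.

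Between the peptide-injected and the normal controls, no member was 1.2-fold apart, and between ASO and either control Bdnf and Ntf3 were lower and Vgf was higher by 1.2 to 1.4-fold. For ACO against NCO, 0 of 9 members were at least 1.2-fold apart, beside 5.48% of all 13313 measured genes (2.76% higher and 2.72% lower). For ASO against ACO, 3 of 9 members were past 1.2-fold, beside 19.4% of 13567 genes: Vgf was higher, as were 10.1% of genes, and Bdnf and Ntf3 were lower, as were 9.26%. By any amount, 2 members were higher and 7 lower, beside 47.1% and 52.9% of genes. For ASO against NCO, 4 of 9 were past 1.2-fold, beside 18.7% of 13457 genes (10.4% higher and 8.32% lower), with Fgf1 higher in addition. No member reached 2-fold in any comparison, as 0.0751% of genes did between ACO and NCO, 0.243% between ASO and ACO, and 0.26% between ASO and NCO. With 9 genes, 3 or 4 past the rule is a small number to set against these shares. The members' median difference was 0.06 for ACO minus NCO, -0.03 for ASO minus ACO and -0.04 for ASO minus NCO. Over all genes the medians were 0.00, -0.01 and -0.01. The comparisons share arrays: a low value on ASO enters both of its differences. RNA came from whole tissue, so fewer cells of a type and less RNA per cell cannot be told apart in any of these values.

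**Figure D1:**
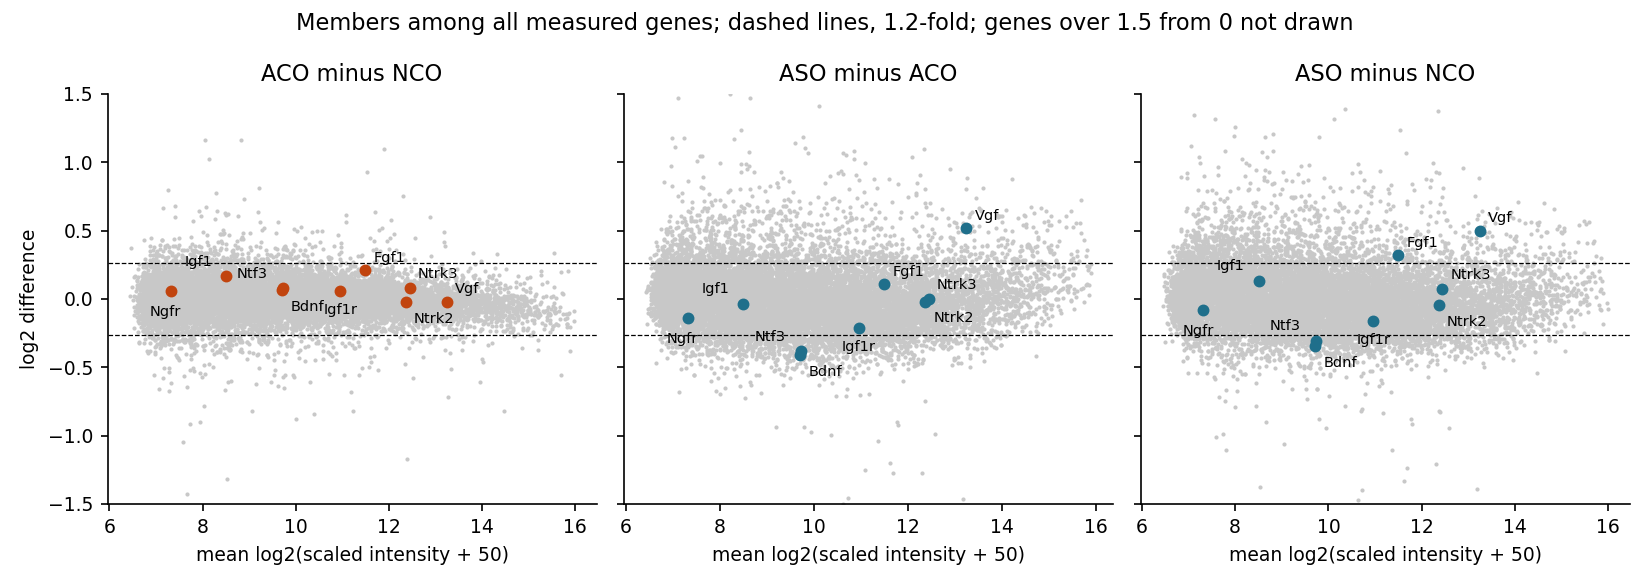
Difference in log2 against mean log2 scaled intensity for each measured gene (grey) and the 9 members (coloured, named), with 1 panel per comparison and dashed lines at 1.2-fold. No member lies past the lines for ACO minus NCO, while Vgf lies at 0.52 and Bdnf at -0.41 for ASO minus ACO.

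Bdnf and Ntf3, the neurotrophin ligands of the set, both read lowest on ASO, while their differences between the controls were within the spot error. The Bdnf probe (A_55_P2036303), which the array design lists for several transcripts, read 847 on NCO, 887 on ACO and 655 on ASO. NCO and ACO lay close together and ASO was low. The difference was 0.06 for ACO minus NCO, -0.41 for ASO minus ACO and -0.35 for ASO minus NCO, that is 1.33-fold and 1.27-fold lower on ASO. The SD of the spot difference at this signal was 0.09 to 0.10 in the comparisons with ASO, so both differences were over 3 times the spot error. Among all measured genes, Bdnf was number 242 of 13567 from the lowest for ASO minus ACO. With spot means in place of spot medians, the difference was -0.27 for ASO minus ACO and -0.25 for ASO minus NCO, and the latter was then under 1.2-fold.

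Ntf3 encodes NT-3, the main ligand of TrkC, which dentate granule cells are known to express. Its probe (A_55_P2021565) read 842 on NCO, 892 on ACO and 672 on ASO. ASO was again the low array, and the controls differed by less than the spot error. The difference was 0.08 for ACO minus NCO, -0.38 for ASO minus ACO and -0.31 for ASO minus NCO. After the median difference of the surrounding spots was subtracted, the values were -0.27 for ASO minus ACO and -0.21 for ASO minus NCO, so that the latter was under 1.2-fold.

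Markers of dentate granule cells, a cell type that makes both ligands, were as a sum also lowest on ASO. Over the 6 of 7 markers that were measured, the levels summed to 5834 (NCO), 6659 (ACO) and 5028 (ASO), with Tdo2 not well above background. All 6 were lower on ASO than on ACO, beside 52.9% of all genes. Of these, 4 were at least 1.2-fold lower (C1ql2, Calb1, Stxbp6 and Trpc6), beside 9.26% of all genes, and the list median was -0.34. For Calb1 the brighter probe gave -0.49 and the other -0.08. Against NCO, 5 were lower on ASO, 2 of them by at least 1.2-fold (C1ql2 and Calb1), beside 8.32% of all genes. Dsp was higher there, at 0.06. The part of these cells in the Bdnf and Ntf3 values was not tested.

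**Figure D2:**
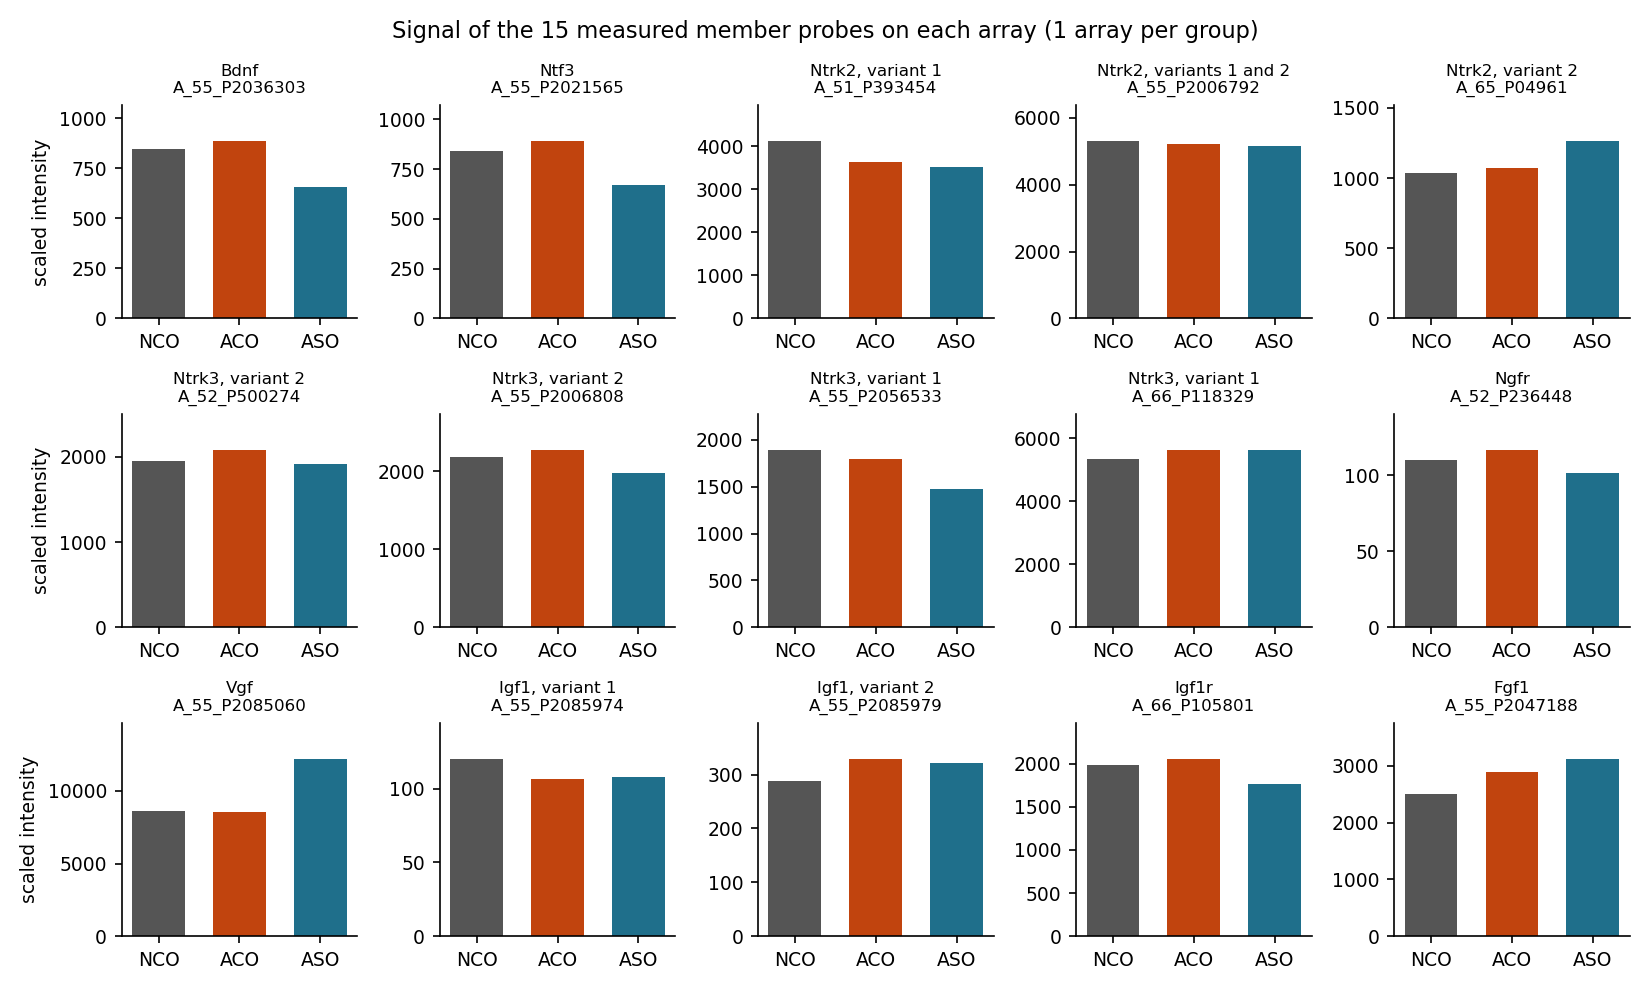
Scaled intensity of the 15 member probes measured on all 3 arrays, as bars from 0 for NCO, ACO and ASO, with 1 array per group and a separate axis per probe. Bdnf reads 655 and Ntf3 672 on ASO, the lowest bar of each, and Vgf reads 12224 on ASO, its highest.

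Of the 10 genes in the list of further neurotrophin ligands and the enzymes that process their precursors, 6 were measured. Ntf5, which encodes NT-4, was not well above background. For ACO minus NCO, 1 was at least 1.2-fold higher (Plat, the tissue plasminogen activator, at 0.35), beside 2.76% of all genes, and none was lower. For ASO minus ACO, 2 were higher (Furin, a proprotein convertase, at 0.27, and Cpe, a carboxypeptidase), beside 10.1% of all genes, and none was lower. The Cpe probes disagreed: the probe counted gave 0.43, a dimmer probe gave -0.00, and the brightest was saturated on both arrays. The list median was 0.11 for ASO minus ACO. Pcsk2, a convertase of dense-core vesicles, differed by -0.06 for ACO minus NCO and -0.02 for ASO minus ACO.

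Ntrk2, the gene of the BDNF receptor TrkB, gave different values by probe. Each transcript form alone had 1 probe, so form and probe cannot be told apart. The probe listed for variant 1 alone, the full-length form (A_51_P393454), was printed at 10 spots. Its level read 4123 on NCO, 3631 on ACO and 3519 on ASO. NCO was the high array, and the spots ranged from 3378 to 5263 there, from 2880 to 4683 on ACO and from 2765 to 4277 on ASO. Taken spot by spot, the difference was -0.18 ± 0.05 (SD over 10 spots) for ACO minus NCO, with 10 of 10 spots lower on ACO. For ASO minus NCO it was -0.23 ± 0.06, with 10 of 10 lower, and for ASO minus ACO -0.04 ± 0.06, with 8 of 10 lower. Among the 251 probes printed 10 times, 13 (5.18%) had every spot lower on ACO than on NCO, and 5 (1.99%) had a mean difference at or below that of this probe. For ASO minus NCO, 72 of 250 (28.8%) had every spot lower and 36 (14.4%) were at or below it. Neither difference reached 1.2-fold.

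The probe listed for both variants of Ntrk2 (A_55_P2006792) read 5308 on NCO, 5212 on ACO and 5144 on ASO. Its differences, -0.03, -0.02 and -0.04 for ACO minus NCO, ASO minus ACO and ASO minus NCO, were all within the spot error. The probe listed for variant 2 alone, the truncated form without the kinase domain (A_65_P04961), read 1035 on NCO, 1075 on ACO and 1264 on ASO. This probe was highest on ASO, where the full-length probe was lowest. Its difference was 0.05 for ACO minus NCO, 0.22 for ASO minus ACO and 0.28 for ASO minus NCO, 1.21-fold. With surrounding spots subtracted the last value was 0.24, under 1.2-fold. The value for ACO minus NCO was 0.18 with surrounding spots subtracted and -0.01 with spot means.

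The difference between arrays was lower for the full-length than for the truncated probe by 0.23 for ACO minus NCO, 0.27 for ASO minus ACO and 0.50 for ASO minus NCO. As background, 2 probes of 1 gene often gave unequal differences on these arrays. Over 3055 genes with at least 2 measured probes, the brightest 2 probes were a median of 0.16 apart for ASO minus NCO, and 6.64% of genes were at least 0.50 apart. For ACO minus NCO 15.7% of genes, and for ASO minus ACO 27.5%, were at least as far apart as the Ntrk2 probes. The Ntrk2 value is the largest of its 3 pairs of probes, which these shares do not allow for. Astrocyte markers, whose cells carry much of the truncated form, summed to 33496 (NCO), 31836 (ACO) and 36437 (ASO). For the truncated probe the controls differed by 0.05, less than the spot SD of 0.08 at its signal. Against ACO, 7 of 7 markers read higher on ASO, with a median of 0.12, beside 47.1% of all genes. Of these markers, 2 (Aqp4 and Gfap) passed 1.2-fold, beside 10.1% of all genes. Gfap, the intermediate filament of reactive astrocytes, differed by 0.84 on its brightest probe. The part of astrocytes in the Ntrk2 values was not tested.

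**Figure D3:**
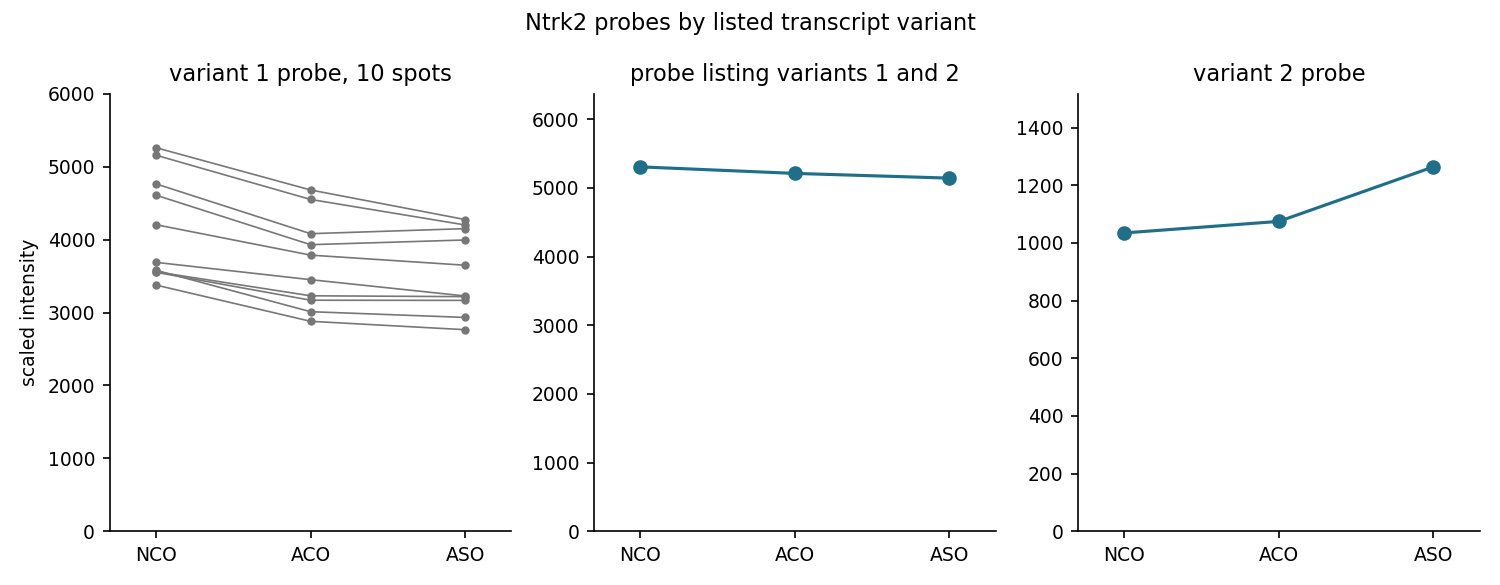
Scaled intensity of the 3 Ntrk2 probes on NCO, ACO and ASO, with each line 1 spot. The 10 spots of the variant 1 probe are all lower on ACO than on NCO, the probe for both variants stays between 5144 and 5308, and the variant 2 probe reads 1264 on ASO.

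Ntrk3, the gene of the NT-3 receptor TrkC, had 4 measured probes that differed among themselves. The brightest (A_66_P118329), listed for the full-length variant 1, read 5335 on NCO, 5629 on ACO and 5615 on ASO. Its differences were 0.08, -0.00 and 0.07 for ACO minus NCO, ASO minus ACO and ASO minus NCO. The other variant 1 probe (A_55_P2056533) read 1895 on NCO, 1801 on ACO and 1474 on ASO. The level was lowest on ASO, at -0.28 against ACO and -0.35 against NCO, and so past 1.2-fold. Probes of 1 listed form therefore disagreed by 0.42 for ASO minus NCO, and 10.7% of genes were as far apart on their 2 brightest probes. The Ntrk3 value is the largest of its 6 pairs of probes, which this share does not allow for.

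For the truncated variant 2 of Ntrk3, probe A_52_P500274 read 1952 on NCO, 2084 on ACO and 1918 on ASO. Probe A_55_P2006808 read 2183 on NCO, 2278 on ACO and 1983 on ASO. Both were highest on ACO, and their differences for ASO minus ACO were -0.12 and -0.19. Ntrk3 as a gene was thus not past 1.2-fold in any comparison by the probe that stood for it. The mean over its probes was -0.15 for ASO minus ACO and -0.11 for ASO minus NCO, which turns the sign of the latter.

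Ngfr encodes p75NTR, which in the adult hippocampus is known chiefly from incoming cholinergic fibres, whose cell bodies lie elsewhere. Of the probes that stood for members it had the lowest signal to noise score, 5.93 on NCO. Its 10 spots gave 110 on NCO, 117 on ACO and 102 on ASO. The level was lowest on ASO, and the spots of the arrays overlapped, from 91.6 to 142.7 on NCO, 94.4 to 141.9 on ACO and 71.4 to 130.8 on ASO. The difference was 0.06 ± 0.10 (SD over 10 spots) for ACO minus NCO and -0.14 ± 0.16 for ASO minus ACO. Of the 10 spots, 8 were lower on ASO than on ACO, and the mean difference was smaller than the SD over spots. That SD describes single spots, and a mean over 10 spots varies less. The difference did not reach 1.2-fold.

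**Figure D4:**
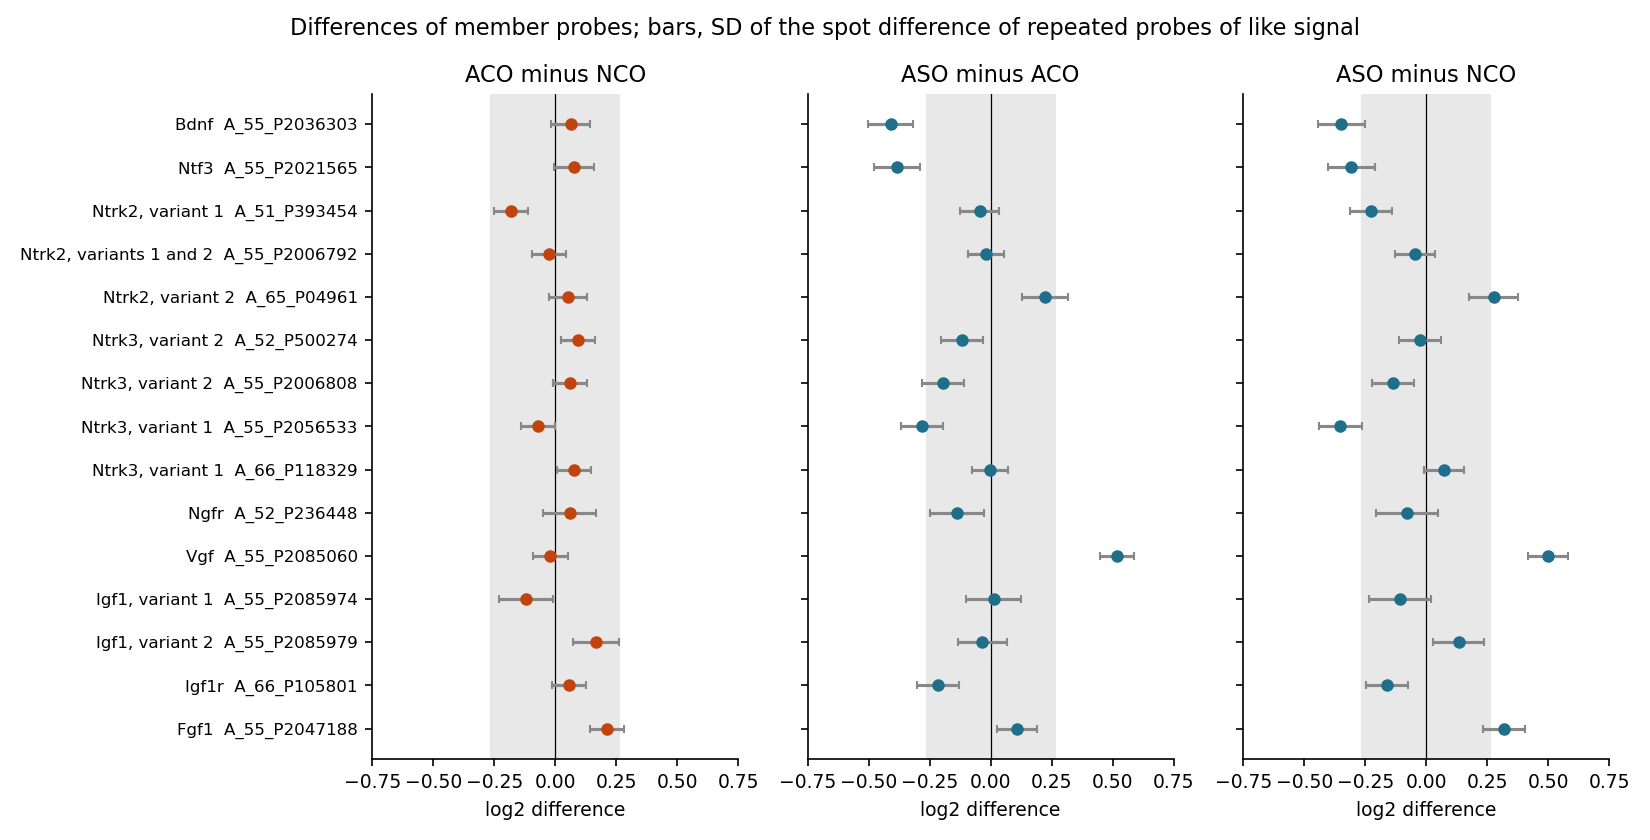
Difference in log2 of each of the 15 measured member probes in the 3 comparisons, with bars of 1 SD of the spot difference of repeated probes of like signal and a grey band within 1.2-fold. No point leaves the band for ACO minus NCO, and for ASO minus ACO Vgf lies above it while Bdnf, Ntf3 and 1 Ntrk3 probe lie below it.

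Among receptors and co-receptors that work with the Trk proteins and p75NTR, 10 of 12 were measured. For ACO minus NCO, 2 were at least 1.2-fold lower (Sorcs1 and Rtn4r), beside 2.72% of all genes, and none higher, with a list median of -0.00. For ASO minus ACO, 2 were higher (Rtn4r and Bex3) and 2 lower (Sort1 and Sorcs3), beside 10.1% and 9.26% of all genes, with a median of 0.08. Sort1 encodes sortilin, the partner of p75NTR in binding neurotrophin precursors. Its brighter probe read 6569 on NCO, 6873 on ACO and 2818 on ASO, a difference of -1.27 for ASO minus ACO. Its other probe read 155 on NCO, 152 on ACO and 166 on ASO, a difference of 0.10. The probes disagreed in sign, and around the brighter spot 8 of 52 measured spots (15.4%) were at least 1.5-fold apart between ASO and ACO, beside 2.51% over the whole array. Around the members' spots the same share ran from 0% to 9.62%, highest at Igf1r.

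Genes of the signalling chain inside the cell, from the adaptors through Ras, MAP kinases, PI3 kinase and Akt to CREB, stayed mostly within 1.2-fold. Of 29 genes in the list, 28 were measured. For ACO minus NCO, 1 was higher (Rps6kb1, the ribosomal S6 kinase, at 0.33), beside 2.76% of all genes, and none lower, with a median of 0.02. For ASO minus ACO none was higher and 4 were lower, namely Rps6kb1 at -0.38, Map2k1 at -0.34, Gab1 at -0.33 and Frs2 at -0.28, beside 9.26% of all genes. The list median was -0.06. Ptpn11, the phosphatase SHP2 and the brightest gene of this list, differed by -0.14 for ASO minus NCO.

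Genes induced by neuronal activity and by neurotrophins were mostly lower on ASO, as Bdnf was. Of 15 genes, 12 were measured for ASO minus ACO. Of these, 10 were lower on ASO, beside 52.9% of all genes, and 7 were at least 1.2-fold lower, beside 9.26%. None was at least 1.2-fold higher, beside 10.1%. The median was -0.31, against -0.01 over all genes. Spry2, a feedback inhibitor of receptor tyrosine kinases, read 211 on NCO, 244 on ACO and 135 on ASO, a difference of -0.67. Arc, a protein of active synapses, read 10154 on NCO, 10405 on ACO and 8494 on ASO, a difference of -0.29. Nr4a1, an immediate early receptor, read 7507 on NCO, 6990 on ACO and 5535 on ASO, a difference of -0.33. Egr2 at -0.51, Penk at -0.48, Egr1 at -0.45 and Fos at -0.42 completed the count and are named because of it. For ACO minus NCO none of 12 was past 1.2-fold, with a median of 0.04. The list was chosen with earlier results of these data known, several of its genes are expressed in dentate granule cells, and the part of those cells was not tested.

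Vgf, the secreted peptide precursor, had the widest range of the 9 members. Its probe (A_55_P2085060) read 8634 on NCO, 8515 on ACO and 12224 on ASO. By these levels the controls were close together and ASO was high, opposite to Bdnf. The difference was -0.02 for ACO minus NCO, 0.52 for ASO minus ACO and 0.50 for ASO minus NCO, or 1.43-fold and 1.41-fold. It was number 315 of 13567 genes from the highest for ASO minus ACO, and over 7 times the spot SD of 0.07 at this signal. Genes of like signal had a median of -0.02 in that comparison. With surrounding spots subtracted the value was 0.39 for ASO minus ACO, and with spot means it was 0.30 for ASO minus NCO, both past 1.2-fold. For ACO minus NCO it was 0.03 with surrounding spots subtracted and -0.15 with spot means.

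The levels of 354 of 13192 genes measured on all arrays followed the Vgf profile within the spot error. The 5 closest, by the largest deviation of array-centred log2 levels over the 3 arrays, were Dennd5b, Thy1, Hcls1, Eif2b4 and Mydgf, with deviations of 0.01. Thy1, a surface protein of neurons, read 23274 on NCO, 22677 on ACO and 32734 on ASO. With 3 arrays many genes share a profile. The general neuron marker sum was also highest on ASO, at 60896 (NCO), 60440 (ACO) and 73431 (ASO). Most of the higher sum on ASO came from Syt1, a synaptic vesicle protein, at 24106, 21899 and 33851. Rbfox3, the neuronal marker NeuN, read 14623, 15132 and 14074. The part of neurons in the Vgf value was not tested.

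Most other granins and dense-core vesicle genes lay within 1.2-fold between ASO and ACO. All 11 were measured. For ASO minus ACO, 1 was at least 1.2-fold higher (Pcsk1n, the granin-like proSAAS, at 0.36) and 1 lower (Scg2, secretogranin II, at -0.30), beside 10.1% and 9.26% of all genes, with a list median of 0.04. Scg2 read 7302 on NCO, 7255 on ACO and 5867 on ASO, low where Vgf was high. Chgb, chromogranin B, read 39589 on NCO, 37442 on ACO and 36165 on ASO, a difference of -0.05. Scg5, another bright granin, differed by 0.15. Pam, the enzyme that amidates neuropeptides, read 771 on NCO, 415 on ACO and 344 on ASO, a difference of -0.82 for ACO minus NCO and the only gene of this list past 1.2-fold there, beside 5.48% of all genes.

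Igf1 gave 2 measured probes with opposite signs in the comparison of the controls. The probe listed for variant 2 (A_55_P2085979) read 288 on NCO, 330 on ACO and 321 on ASO. NCO was the low array, at 0.17 for ACO minus NCO, -0.03 for ASO minus ACO and 0.13 for ASO minus NCO. The probe listed for variant 1 and further transcripts (A_55_P2085974) read 120 on NCO, 107 on ACO and 108 on ASO. NCO was here the high array, at -0.12 for ACO minus NCO and 0.01 for ASO minus ACO. None of these reached 1.2-fold.

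The other 3 Igf1 probes were dim, and all were listed for variant 1 and further transcripts. Probe A_55_P2031631 was above background only on ASO, at 68.4, with 52.3 on NCO and 44.1 on ACO. Without the added constant, its level on ASO was 1.55-fold that on ACO and 1.31-fold that on NCO. With 50 added, as elsewhere, these were 1.26-fold and 1.16-fold. On NCO and ACO the probe was not well above background, so none of these is a measured difference. Probes A_55_P2031636 and A_55_P2085984 were not well above background on any array. Of the probes listed for the same transcripts, the measured one did not differ between ASO and ACO beyond the spot error. Microglia are a known source of IGF-1. Of 12 of their markers, 11 were higher on ASO than on ACO, beside 47.1% of all genes. Of these, 9 were at least 1.2-fold higher, beside 10.1%, and the list median was 0.43. The levels of the 12 markers summed to 37573 (NCO), 32228 (ACO) and 42967 (ASO). Much of the lower sum on ACO came from Itgam, which read 8521 on NCO, 3760 on ACO and 4790 on ASO. P2ry12 was the marker that was lower on ASO than on ACO. Against NCO, Itgam (-0.82) and P2ry12 (-0.03) were the markers lower on ASO. The part of microglia in the Igf1 values was not tested.

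Igf1r, the IGF-1 receptor, read 1980 on NCO, 2059 on ACO and 1766 on ASO (probe A_66_P105801). ASO was the low array, as for Bdnf and Ntf3, with a difference of 0.06 for ACO minus NCO, -0.22 for ASO minus ACO and -0.16 for ASO minus NCO. It was within 1.2-fold, but with surrounding spots subtracted it was past it, at -0.36 for ASO minus ACO and -0.32 for ASO minus NCO.

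Of 18 other genes of the IGF and insulin system, 12 were measured. Igfbp2, a secreted IGF-binding protein, read 1384 on NCO, 1719 on ACO and 1836 on ASO. NCO was the low array, at 0.30 for ACO minus NCO and 0.09 for ASO minus ACO, and its other probe gave 0.28 and 0.03. It was the only gene of the list past 1.2-fold between the controls, beside 5.48% of all genes. Irs1, an adaptor of the insulin and IGF-1 receptors, was the only gene past it for ASO minus ACO, at -0.36, beside 19.4% of all genes. The list medians were 0.03 for ACO minus NCO and 0.01 for ASO minus ACO. The related receptors Insr and Igf2r differed by -0.26 and -0.23 for ASO minus ACO, within 1.2-fold. Igf2, the other IGF ligand, read 118 on NCO, 144 on ACO and 145 on ASO. Igfbp5, a further binding protein, differed by -0.15 for ACO minus NCO. Irs2, with Igfbp6 the brightest of the list, differed by 0.04 for ASO minus ACO, and Igfbp6 by 0.10.

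Igfbp2, Igf2 and the Klotho gene Kl are also made by the choroid plexus and meninges. Of 9 choroid plexus markers, Kl itself among them, 8 were at least 1.2-fold higher on ACO than on NCO, beside 2.76% of all genes, with a list median of 0.51. The remaining marker, Ttr, its most abundant transcript, was lower, at 20070 on NCO, 14579 on ACO and 15657 on ASO. Ttr outweighs the others in the summed level of 23870 (NCO), 19849 (ACO) and 19938 (ASO). The part of this tissue in the Igfbp2, Igf2 and Kl values was not tested.

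Fgf1, the acidic fibroblast growth factor of neurons, had its measured probe (A_55_P2047188) at 2496 on NCO, 2898 on ACO and 3126 on ASO. NCO was the low array. The difference was 0.21 for ACO minus NCO, 3 times the spot SD of 0.07 and the largest of the members there, 0.11 for ASO minus ACO and 0.32 for ASO minus NCO, or 1.25-fold. With surrounding spots subtracted the value for ASO minus NCO was 0.25, under 1.2-fold, and that for ASO minus ACO was 0.01. The other Fgf1 probe (A_52_P538673) was not well above background on any array, at 21.3 to 23.8.

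Of 25 other FGF genes, receptors and cofactors, 13 were measured, with Fgf2 and Fgfr2 not well above background. For ACO minus NCO, 2 were at least 1.2-fold higher (Kl, a co-receptor of endocrine FGFs, at 0.51, and Fgf23 at 0.28), beside 2.76% of all genes, and none lower. For ASO minus ACO, 3 were higher (Fgf23, Fgfr1 and Fgfr3) and 3 lower (Fgf10, Fgf12 and Fgfbp3), beside 10.1% and 9.26% of all genes, with a list median of -0.07. Fgfr1, a receptor for FGF-1 in neurons, read 3771 on NCO, 3800 on ACO and 4592 on ASO, a difference of 0.27 for ASO minus ACO, while its other probes gave 0.20 and -0.03. Fgfr3, an astrocyte receptor, gave 0.32 on its brighter probe and -0.20 on the other. Fgf23, an endocrine FGF known chiefly from bone, read 3495 on NCO, 4268 on ACO and 9168 on ASO, a difference of 1.09, and its other probe was not well above background.

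Of 37 other trophic factors and receptors, such as the GDNF, CNTF, EGF, VEGF and PDGF families, 26 were measured between ASO and ACO. There 1 was at least 1.2-fold higher (Ptn, pleiotrophin, at 0.27) and 2 were lower (Erbb4, a neuregulin receptor of interneurons, at -0.35, and Egfr at -0.29), beside 10.1% and 9.26% of all genes. Between the controls none of 26 was past 1.2-fold. The list medians were -0.04 and -0.01, near those of all genes. Pdgfa, the brightest of the list, differed by -0.10 for ASO minus ACO.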

How the data were processed

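Pooled hippocampal RNA of NCO, ACO and ASO (200 ng, Cy3) was read on 3 one-colour arrays. The foreground and background intensities are the authors' GenePix Pro 6.1.0.4 spot values, not normalized, per the file headers. The authors deposited 2 further GenePix columns used here, each spot's percent of pixels at saturation and its signal to noise score. The submitters' processing notes name Agilent Feature Extraction, whose columns these files do not hold. Of 45220 spots per array, 43020 carried 39429 gene probes. The local background was handled by normexp in limma 3.58.1 (R 4.3.3) with offset 0. Arrays were scaled to a common 75th percentile (factors 1.06, 0.949 and 0.991 for NCO, ACO and ASO), and 50 was added before log2. Probes needed a score of at least 2.6 on both arrays and were left out where 50% or more of the pixels were saturated on both. The calculation was tested on simulated differences. Probe names came from the files, updated through RefSeq accessions for 26684 probes. Differences of at least 1.2-fold were counted without a test. The surrounding-spot alternative took a window of 5 rows and columns either way. The 9 members are named with every probe. List genes are named if 1.5-fold apart, among the 2 brightest of their list or a direct partner of a member; further names were chosen after their values were seen, because a count of 5 or fewer or a pattern turned on them. Members, lists and tests were chosen with earlier results of these data known. Some genes that the naming rule covers are not reported here. No sequences or coordinates were used here.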

Additional observations from a re-analysis of the deposited data

How the results depend on the processing

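No paired analysis was possible because each group had 1 array, and for the same reason no replicate could be left out. The counts of members past 1.2-fold were recomputed under 9 alternatives: plain background subtraction, spot means, a constant of 16, quantile normalization, another set of probes for the percentile, subtraction of the surrounding spots, no filter on dim probes, a score of at least 5, and the mean over probes. The count for ACO against NCO was 0 under all of them. For ASO against ACO it was 3, or 4 with surrounding spots subtracted, and for ASO against NCO it was 4, or 3 with surrounding spots subtracted or with spot means. Vgf was past 1.2-fold in both comparisons with ASO under all 9, from 0.39 to 0.54 against ACO and from 0.30 to 0.52 against NCO. Bdnf was past it under 9 of 9 against ACO (-0.43 to -0.27) and 8 of 9 against NCO. Ntf3 was past it under 9 of 9 against ACO (-0.40 to -0.27) and 8 of 9 against NCO, and Fgf1 under 8 of 9 against NCO. The sign of the small differences of Ntrk3 between ASO and each control turned under some alternatives, as did that of the Ntrk2 probe for both variants between ASO and ACO. The Vgf difference between the controls also turned sign, ranging from -0.15 to 0.03. With surrounding spots subtracted, Fgf1 for ASO minus ACO was 0.01 in place of 0.11. The authors' value table lists none of the 19 member probes among its 475, so that alternative gave no value. Signal over background limits Ngfr and the dim Igf1 probes.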
